A study of Mus musculus with 12 samples.

Results

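The 50 genes described here run the cell cycle and DNA replication, and all 50 were found by gene name among the 54532 genes of the deposited tables. They were grouped by role into 6 G1 cyclins and kinases, 4 transcription factors, 11 genes of origin licensing and the replication fork, 4 genes of nucleotide supply, 10 mitotic cyclins, kinases and chromosome proteins, 7 kinetochore and spindle checkpoint genes, 6 spindle motors and midzone proteins, and 2 partners of the anaphase-promoting complex. Small intestine of C57BL/6J mice was the source of the RNA, with 3 libraries per group and 12 in all. CKO mice carried a knockout of Piezo1, a mechanically gated cation channel, targeted to the intestinal epithelium. Mice with the floxed allele (flox) were its controls. The groups were CKO with induced necrotizing enterocolitis (NEC), flox with NEC, CKO control without NEC and flox control without NEC. NEC is an inflammatory injury of the newborn bowel. Age, the Cre driver and the way NEC was induced are not stated in the labels, and nothing in them says that libraries came from separate mice, so p-values measure the spread between these libraries. The series title places Piezo1 in the progression of NEC through Ca2+ and its kinase CaMKII.

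In the intestine, cell division is confined mostly to the crypts, where stem cells and their transit-amplifying progeny renew an epithelium that is shed from the villi. D-type cyclins with CDK4 or CDK6 start the cycle by phosphorylating the Rb family, which frees E2F factors to switch on genes for DNA synthesis. The MCM helicase is loaded at origins in G1 and is activated in S phase. Genes for mitosis follow later, under B-Myb, FOXM1 and the MuvB complex, and the anaphase-promoting complex then destroys cyclins and securin. In whole tissue, fewer cycling cells and less RNA per cycling cell cannot be told apart.

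Depth was 13057724 to 16821130 reads per library, recovered from the deposited FPKM, whose values in a library are all multiples of the worth of 1 read. Piezo1 was read at 5.38, 5.58 and 3.23 deposited FPKM in the CKO NEC libraries, against 7.38, 7.23 and 6.76 FPKM in the flox NEC libraries. In control tissue Piezo1 was at 1.71, 1.03 and 0.926 FPKM in the CKO libraries, against 1.38, 1.44 and 1.09 FPKM in the flox libraries. The groups did not overlap in NEC and overlapped in control, and neither difference passed the threshold (limma, adjusted p = 0.840 in NEC and 0.846 in control). The labelled loss of Piezo1 is therefore not shown by its RNA in control tissue, which also holds cells other than epithelium. Enterocyte markers were high in every library, with a summed level of 4289 to 12594 rescaled FPKM over 7 genes. The NEC and control tables were scaled separately by the authors, so levels are compared between them as rescaled FPKM, that is, recovered reads per length of gene model brought to a scale shared by all 12 libraries. Condition and table are the same split, so NEC and any other difference between the 2 tables cannot be told apart.

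The promoters of these genes were searched for elements known from cell cycle promoters. RefSeq promoters on GRCm38.p6 (250 bases before to 50 after the start) were matched by symbol for 38 of the 50 genes, with 40 promoters in all. Searched on both strands were the CCAAT box (letters CCAAT), the cell cycle homology region or CHR (TTTGAA or TTCGAA), which MuvB complexes bind, and an E2F element (TTTGGCGC, TTTCCCGC or TTTCGCGC). E2F elements on opposite strands can overlap each other, and TTCGAA reads the same on both strands. CCAAT was present in 72.5% of the members' promoters, against 37.4% of all 32851 promoters of the same length. CHR was present in 47.5% of the members' promoters, against 19.2% of all, and an E2F element in 20%, against 1.84% of all. A CCAAT box and a CHR stood together in 6 of the 7 promoters of mitotic cyclins, kinases and chromosome proteins and in 2 of the 9 promoters of licensing and fork genes. An E2F element stood in 6 of those 9 licensing and fork promoters and in 1 of the 7 mitotic promoters. The 4 promoters of nucleotide supply genes held neither a CHR nor an E2F element in this window. A match is a description of letters, and binding was not measured.

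Upstream stretches of 4 mitotic genes and 2 helicase subunits are shown as examples. Those of the 4 mitotic genes each hold a CCAAT box and a CHR, and those of the 2 helicase subunits a CCAAT box and an E2F element. A link between the elements and the size of change was not tested. The Ccnb1 promoter held a CCAAT box and no CHR, and those of Nusap1 and Birc5 held none of the searched elements, although these genes rise below. Mcm5 and Mcm6 promoters both held a CCAAT box and an E2F element and no CHR, while their changes differ. Each is read on the strand of its gene, 5′ to 3′, with the searched motifs in capitals. The Cdc20 stretch is chr4:118437353-118437408 (minus strand), the Kif11 stretch chr19:37376325-37376380 (plus), the Mki67 stretch chr7:135716460-135716579 (minus), the Ccnb2 stretch chr9:70421559-70421733 (minus), the Mcm5 stretch chr8:75109344-75109503 (plus) and the Mcm6 stretch chr1:128359706-128359827 (minus).
Cdc20: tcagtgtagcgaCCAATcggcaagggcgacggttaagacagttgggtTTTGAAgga
Kif11: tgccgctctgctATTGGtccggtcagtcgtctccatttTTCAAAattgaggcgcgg
Mki67: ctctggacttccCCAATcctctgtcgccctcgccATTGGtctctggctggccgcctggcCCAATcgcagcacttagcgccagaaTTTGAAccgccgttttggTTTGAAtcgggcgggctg
Ccnb2: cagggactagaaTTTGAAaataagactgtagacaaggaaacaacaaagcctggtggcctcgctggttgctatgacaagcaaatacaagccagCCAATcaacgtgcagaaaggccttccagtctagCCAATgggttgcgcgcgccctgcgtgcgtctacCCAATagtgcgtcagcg
Mcm5: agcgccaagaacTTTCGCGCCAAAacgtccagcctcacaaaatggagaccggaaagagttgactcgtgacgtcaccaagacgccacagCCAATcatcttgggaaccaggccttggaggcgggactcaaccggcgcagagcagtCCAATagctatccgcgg
Mcm6: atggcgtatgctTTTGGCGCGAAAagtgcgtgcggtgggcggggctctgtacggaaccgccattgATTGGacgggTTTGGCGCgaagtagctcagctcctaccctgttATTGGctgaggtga

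Most cell cycle genes were higher in NEC tissue than in control tissue in both genotypes. In CKO, 42 of the 50 genes rose, 1 fell and 7 did not pass the test (limma on log2 of rescaled FPKM plus 1, Benjamini-Hochberg adjusted p under 0.05 over all genes tested). Over all 14688 genes tested in CKO, 20.1% rose and 22.9% fell. In flox, 39 of the 50 genes rose, 1 fell and 10 did not pass, while 27.1% of all genes rose and 26.4% fell. Of these genes, 37 rose in both genotypes, and the 2 comparisons share no library, although they share 1 estimate of the spread. The median log2 change of the 50 genes was 1.46 in CKO and 1.17 in flox, against -0.01 and 0.00 over all genes tested. No called member changed direction under another scaling. Scaling by total reads moved the median of all genes to 0.24 in CKO and 0.22 in flox, and the members' median stood 1.39 and 1.15 above it. Under that scaling 5185 genes rose and 1837 fell in CKO, and 5553 rose and 2709 fell in flox. With the deposited FPKM of both tables, 3907 genes rose and 2543 fell in CKO, and 4972 rose and 3148 fell in flox.

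**Figure D1:**
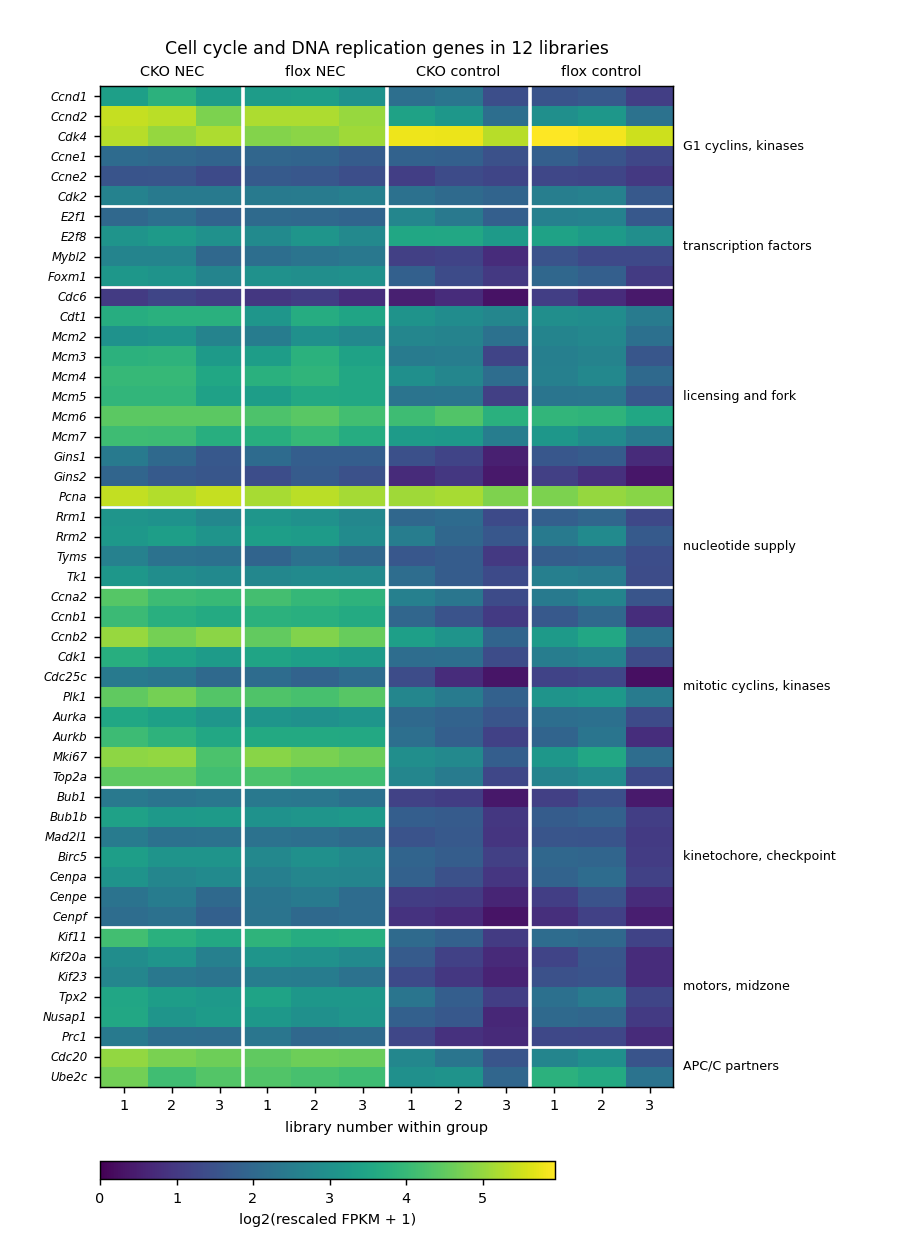
Level of the 50 genes (rows, by role) in the 12 libraries (columns, by group) as log2 of rescaled FPKM plus 1, with yellow for high levels. The NEC libraries are brighter than the control libraries for most rows, Cdk4, E2f1 and E2f8 are not, and library 3 of each control group is the darkest control column.

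The share of all reads that fell in these 50 genes was 0.340, 0.314 and 0.231% in the CKO NEC libraries, against 0.111, 0.0982 and 0.0536% in the CKO control libraries. In flox it was 0.286, 0.276 and 0.257% in the NEC libraries, against 0.115, 0.125 and 0.0589% in the control libraries. No NEC library overlapped a control library in this share. The median gene had 656 reads in a CKO NEC library and 151 in a CKO control library. The fewest were 7 reads in CKO control and 5 in flox control, both for Cdc25c, a phosphatase that activates CDK1, so its control levels are the least precise.

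The G1 genes were divided. The cyclins Ccnd1 and Ccnd2 rose, the kinase Cdk4 fell, and the E-type cyclins and Cdk2 did not pass the test, save Ccne2 in flox. Ccnd2 (cyclin D2) had 41.8, 39.1 and 26.3 rescaled FPKM in CKO NEC libraries, against 9.72, 7.83 and 3.45 in CKO control libraries. For Ccnd2 the flox values were 36.4, 36.3 and 31.6 rescaled FPKM in NEC libraries, against 6.76, 7.81 and 3.70 in control libraries. The groups stood well apart, with log2 changes of 2.27 ± 0.32 (SE, adjusted p = 0.000365) in CKO and 2.38 ± 0.32 (adjusted p = 0.000118) in flox. Ccnd1 (cyclin D1) rose too, by 1.53 ± 0.24 in CKO and 1.79 ± 0.24 in flox on the log2 scale. Neither cyclin has a promoter in the matched set.

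Cdk4, the catalytic partner of these cyclins, was the only one of the 50 genes that fell. It had 38.5, 31.3 and 35.9 rescaled FPKM in CKO NEC libraries, against 54.2, 53.9 and 38.9 in CKO control libraries. In flox it had 27.8, 29.1 and 33.5 rescaled FPKM in NEC libraries, against 60.7, 56.2 and 44.2 in control libraries. The lowest control library lay just above the highest NEC library in CKO, and the gap was wider in flox. The log2 change was -0.45 ± 0.16 (adjusted p = 0.0421) in CKO and -0.80 ± 0.16 (adjusted p = 0.00165) in flox. The CKO call was lost in 9 of the alternatives, leaving out any 1 of the CKO NEC libraries or of the CKO control libraries 1 and 2 among them, and the flox call was lost in none. Among the E-type cyclins and their kinase, Ccne1 (0.27 in CKO and 0.34 in flox) and Cdk2 (0.43 and 0.22) passed in neither genotype, and Ccne2 passed in flox only (0.26 and 0.40, adjusted p = 0.143 and 0.0250).

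The transcription factors were divided as well. Mybl2 (B-Myb) and Foxm1, which act on mitotic genes, rose in both genotypes, by 1.42 ± 0.19 and 1.57 ± 0.25 on the log2 scale in CKO and by 0.89 ± 0.19 and 1.37 ± 0.25 in flox. E2f1, an activator of S phase genes, had log2 changes of -0.29 ± 0.27 and -0.30 ± 0.27 in CKO and flox and did not pass (adjusted p = 0.413 and 0.373). E2f8, an atypical E2F that represses, had 7.39, 8.47 and 7.01 rescaled FPKM in CKO NEC libraries, against 10.7, 10.8 and 8.44 in CKO control libraries. For E2f8 the flox values were 6.22, 7.64 and 6.02 rescaled FPKM in NEC libraries, against 9.82, 8.44 and 6.63 in control libraries. The E2f8 groups overlapped in both genotypes, and its log2 changes of -0.35 ± 0.15 and -0.28 ± 0.15 did not pass (adjusted p = 0.0820 and 0.137).

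Of the 11 licensing and fork genes, 9 rose in CKO and 8 in flox, with median log2 changes of 0.97 and 0.66. Helicase subunits differed among themselves. Mcm5 rose by 1.84 ± 0.31 in CKO and 1.40 ± 0.31 in flox, Mcm3 by 1.56 ± 0.36 and 1.24 ± 0.36, Mcm4 by 1.22 ± 0.24 and 1.28 ± 0.24, and Mcm7 by 0.97 ± 0.22 and 0.98 ± 0.22. Mcm2 (0.39 and 0.21) passed in neither genotype and Mcm6 passed in flox only (0.38 and 0.51, adjusted p = 0.0597 and 0.0131). The Mcm5 and Mcm6 stretches shown above both hold E2F elements on both strands. Cdt1, a loader of the helicase, rose by 0.87 and 0.66, and Cdc6, the other loader, rose in CKO (0.61 ± 0.20, adjusted p = 0.0264) and did not pass in flox (0.19 ± 0.20, adjusted p = 0.445). Gins2, a subunit of the GINS complex that joins the active helicase, rose by 1.03 and 0.76, and Gins1 passed in CKO only (0.97 and 0.52).

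Pcna, the sliding clamp of the DNA polymerases, had the highest mean level of the licensing and fork genes and one of the smallest changes. It had 41.0, 37.4 and 41.8 rescaled FPKM in CKO NEC libraries, against 33.3, 35.1 and 26.8 in CKO control libraries. In flox it had 35, 39.3 and 34.5 rescaled FPKM in NEC libraries, against 26.2, 31.1 and 28.7 in control libraries. The groups did not overlap, and the log2 change was 0.33 ± 0.12 in both genotypes (adjusted p = 0.0459 in CKO and 0.0401 in flox). The call was lost in 7 alternatives in CKO and in 6 in flox, leaving out any 1 of the NEC libraries among them in both genotypes.

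The 4 genes of nucleotide supply all rose in CKO, with a median log2 change of 1.16, and 2 of them rose in flox, with a median of 0.74. Rrm2, the radical-carrying subunit of ribonucleotide reductase, had 8.07, 9.15 and 7.47 rescaled FPKM in CKO NEC libraries, against 4.78, 2.95 and 2.05 in CKO control libraries. For Rrm2 the flox values were 9.02, 8.59 and 6.25 rescaled FPKM in NEC libraries, against 4.46, 6.17 and 2.21 in control libraries. The flox groups nearly touched, and the log2 changes were 1.16 ± 0.29 in CKO (adjusted p = 0.00761) and 0.82 ± 0.29 in flox (adjusted p = 0.0303). Rrm1, the other subunit, rose by 1.16 ± 0.22 and 1.27 ± 0.22. Tyms, which makes thymidylate, and Tk1, which salvages thymidine, passed in CKO (0.91 and 1.24) and not in flox (0.39 and 0.66, adjusted p = 0.128 and 0.0673). A different outcome of the test in the 2 genotypes is no difference between them, which is tested further on.

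All 10 mitotic cyclins, kinases and chromosome proteins rose in both genotypes, with median log2 changes of 2.11 in CKO (range 1.45 to 2.31) and 1.69 in flox (range 1.13 to 2.25). Ccnb2 (cyclin B2, a partner of CDK1), the highest of them in mean level, had 31.8, 25.0 and 29.3 rescaled FPKM in CKO NEC libraries, against 9.32, 7.48 and 2.76 in CKO control libraries. In flox it had 21.8, 27.4 and 22.7 rescaled FPKM in NEC libraries, against 8.46, 10.9 and 3.67 in control libraries. The lowest NEC library had more than any control library in each genotype, and the log2 changes were 2.10 ± 0.38 in CKO and 1.62 ± 0.38 in flox (adjusted p = 0.00136 and 0.00381). Its promoter stretch above holds a CHR and 3 CCAAT boxes.

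Ccnb1 (cyclin B1) had 15.5, 12.4 and 11.4 rescaled FPKM in CKO NEC libraries, against 2.91, 1.89 and 1.00 in CKO control libraries. In flox Ccnb1 had 13.2, 12.5 and 11.4 rescaled FPKM in NEC libraries, against 2.19, 3.05 and 0.709 in control libraries. Its NEC libraries lay close together and far above every control library, with log2 changes of 2.31 ± 0.30 in CKO and 2.25 ± 0.30 in flox (adjusted p = 0.000240 and 0.000111). Mki67, the Ki-67 protein that coats mitotic chromosomes and marks cycling cells, had 29.6, 30.7 and 18.2 rescaled FPKM in CKO NEC libraries, against 6.71, 5.94 and 2.40 in CKO control libraries. In flox Mki67 had 28.7, 26.1 and 23.5 rescaled FPKM in NEC libraries, against 7.83, 10.8 and 3.34 in control libraries. CKO NEC library 3 was the lowest of the NEC libraries and still above all control libraries, and the log2 changes of Mki67 were 2.23 ± 0.38 in CKO and 1.81 ± 0.38 in flox.

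Top2a, the topoisomerase that untangles sister chromatids, had 21.3, 21.1 and 16.7 rescaled FPKM in CKO NEC libraries, against 5.63, 4.55 and 1.41 in CKO control libraries. In flox Top2a had 18.3, 16.3 and 16.4 rescaled FPKM in NEC libraries, against 5.35, 6.36 and 1.52 in control libraries. The NEC libraries again formed a narrow band above the controls, with log2 changes of 2.21 ± 0.41 and 1.88 ± 0.41 in CKO and flox. Aurkb, the Aurora kinase of the chromosomal passenger complex, had 15.9, 13.4 and 10.9 rescaled FPKM in CKO NEC libraries, against 3.54, 2.51 and 1.22 in CKO control libraries. In flox Aurkb had 11.3, 11.2 and 11 rescaled FPKM in NEC libraries, against 2.76, 3.96 and 0.724 in control libraries. The flox NEC libraries were nearly equal, and the log2 changes of Aurkb were 2.12 ± 0.35 in CKO and 1.93 ± 0.35 in flox. The remaining members of this role rose too: Ccna2 (cyclin A2) by 2.06 and 1.76, the kinases Plk1 by 2.18 and 1.41, Aurka by 1.52 and 1.17 and Cdk1 by 1.59 and 1.18, and Cdc25c by 1.45 and 1.13.

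**Figure D2:**
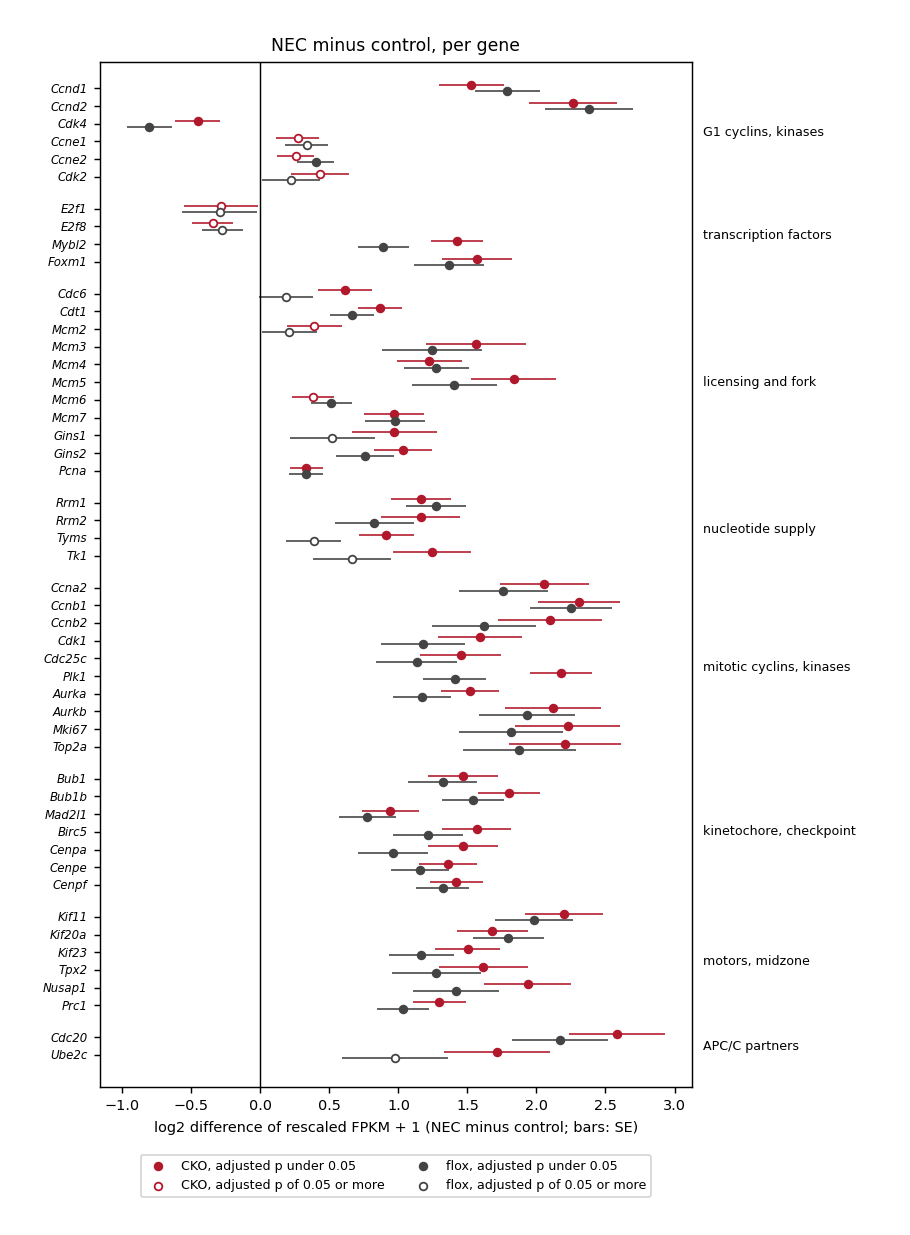
Log2 difference of rescaled FPKM plus 1 between NEC and control for each of the 50 genes, in CKO (red, above) and flox (grey, below), with bars for the standard error and filled points for adjusted p under 0.05. The mitotic cyclins, kinases and chromosome proteins lie between 1.13 and 2.31, with Cdk4 at -0.45 in CKO and -0.80 in flox and Cdc20 at 2.58 and 2.17.

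All 7 kinetochore and checkpoint genes rose in both genotypes, with median log2 changes of 1.47 in CKO and 1.21 in flox. Bub1b (BubR1, which holds back anaphase until chromosomes are attached) had 9.51, 8.31 and 8.39 rescaled FPKM in CKO NEC libraries, against 2.41, 2.26 and 0.957 in CKO control libraries. For Bub1b the flox values were 7.19, 7.58 and 8.06 rescaled FPKM in NEC libraries, against 2.32, 2.62 and 1.15 in control libraries. The groups were well separated, with log2 changes of 1.80 ± 0.22 in CKO and 1.54 ± 0.22 in flox (adjusted p = 0.000199 and 0.000202). The others of this role were the checkpoint genes Bub1 (1.47 and 1.32) and Mad2l1 (0.94 and 0.77), Birc5 (survivin, 1.57 and 1.21), the centromeric histone Cenpa (1.47 and 0.96), the kinetochore motor Cenpe (1.36 and 1.16) and Cenpf (1.42 and 1.32).

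All 6 spindle motor and midzone genes also rose in both, with medians of 1.65 and 1.35. Kif11 (Eg5, which pushes spindle poles apart) had 16.6, 12.8 and 11.1 rescaled FPKM in CKO NEC libraries, against 3.15, 2.58 and 1.04 in CKO control libraries. In flox it had 13.5, 11.9 and 12.2 rescaled FPKM in NEC libraries, against 3.28, 3.06 and 1.28 in control libraries. Every NEC library was far above every control library, with log2 changes of 2.20 ± 0.28 in CKO and 1.98 ± 0.28 in flox (adjusted p = 0.000235 and 0.000176). Its stretch above has a CCAAT box and a CHR within 57 bases of the start. Nusap1 (1.94 and 1.42), Kif20a (1.68 and 1.80), Tpx2 (1.61 and 1.28), Kif23 (1.5 and 1.17) and Prc1 (1.30 and 1.03), which organise spindle microtubules or the midzone, followed.

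Cdc20, the activator of the anaphase-promoting complex, had the largest rise of the 50 genes in CKO. It had 30.7, 26.1 and 23.7 rescaled FPKM in CKO NEC libraries, against 5.73, 3.96 and 1.96 in CKO control libraries. For Cdc20 the flox values were 21.5, 23.8 and 22.9 rescaled FPKM in NEC libraries, against 5.48, 6.77 and 1.90 in control libraries. The groups were far apart, with log2 changes of 2.58 ± 0.35 in CKO and 2.17 ± 0.35 in flox (adjusted p = 0.000293 and 0.000374). Ube2c, the ubiquitin-conjugating enzyme of the complex, rose in CKO (1.71 ± 0.38, adjusted p = 0.00453) and did not pass in flox (0.97 ± 0.38, adjusted p = 0.0503).

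The control libraries were not alike. Library 3 was the lowest of its group for 49 of the 50 genes in CKO control and for 48 of 50 in flox control. The median ratio of library 3 to the mean of the other 2 libraries was 0.444 in CKO control and 0.415 in flox control over the 50 genes, against 0.995 and 1.02 over all genes tested. For mitotic cyclins, kinases and chromosome proteins the median ratio was 0.391 and 0.339, and for the G1 genes it was 0.701 and 0.597. The within-group SD on the log2 scale had a median over the 50 genes of 0.188 in CKO NEC, 0.131 in flox NEC, 0.429 in CKO control and 0.458 in flox control, against 0.190, 0.136, 0.186 and 0.190 over all genes. In the same libraries 3, the 5 Paneth cell markers summed to 55.9 rescaled FPKM in CKO control and 67.9 in flox control, against 9.79 to 34.8 in the other control libraries. The summed level of the 6 crypt stem cell markers was lowest in library 3 within each control group. For CKO control the sums were 50.3, 53.3 and 39.5 rescaled FPKM in libraries 1, 2 and 3. For flox control they were 34.5, 53.4 and 30.5 in the same order. The part of these cell types in the low levels was not tested.

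**Figure D3:**
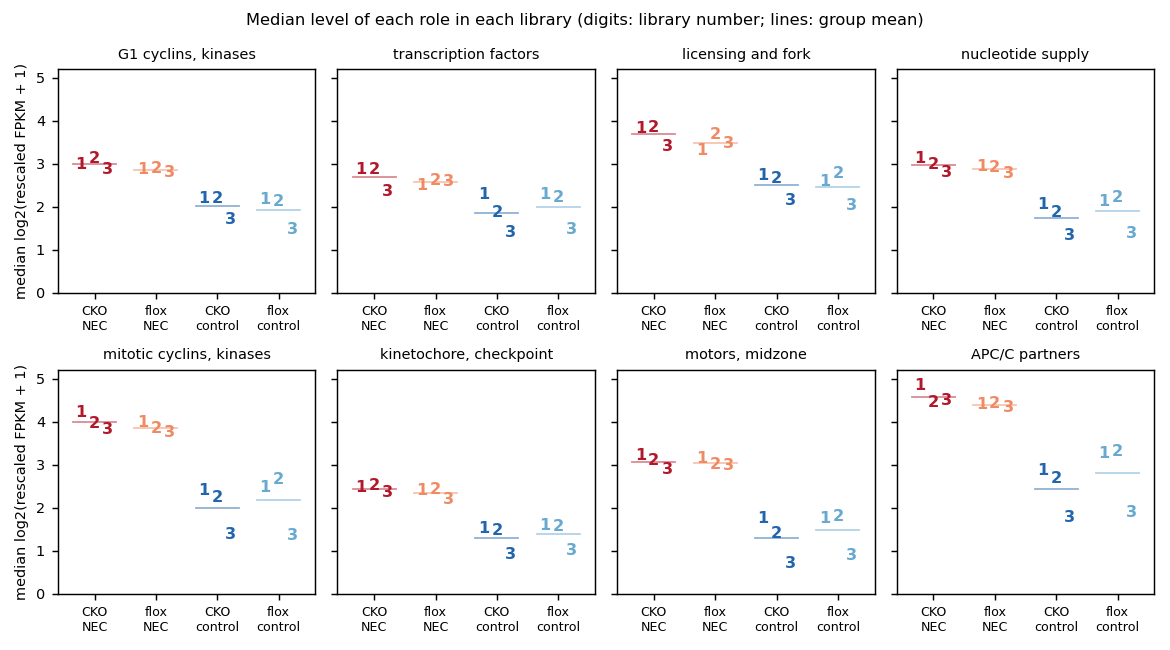
Median log2 of rescaled FPKM plus 1 over the genes of each role in each library (digits give the library number, lines the mean of 3 libraries). For the mitotic cyclins, kinases and chromosome proteins the libraries span 3.82 to 4.23 in CKO NEC, 3.74 to 4.0 in flox NEC, 1.37 to 2.39 in CKO control and 1.36 to 2.67 in flox control, with library 3 lowest in both control groups.

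Without both control libraries 3, an alternative chosen after seeing the data, 41 of the 50 genes rose in NEC in CKO and 38 in flox, with medians of 1.22 and 0.90. Over all genes tested in that setting, 18.9% rose and 21.0% fell in CKO, and 27.6% rose and 25.9% fell in flox. The genes that then fell in each genotype were 3, Cdk4 (-0.61 in CKO and -0.94 in flox), E2f1 (-0.54 and -0.62) and E2f8 (-0.45 and -0.41), with adjusted p of 0.000313 to 0.0213. In the NEC libraries, CKO NEC library 3 was the lowest of its group for 38 of the 50 genes, with a median ratio of 0.815 to the other 2. Its Paneth markers summed to 125 rescaled FPKM, while the other CKO NEC libraries had 234 and 243. In the control libraries 3, by contrast, Paneth markers were the highest of their group. Smooth muscle markers in CKO NEC library 3 summed to 307, against 1184 and 938, and fibroblast markers to 241, against 405 and 358. Its enterocyte markers were the highest of the group, at 7140 against 5825 and 5116. The part of these cell types was not tested.

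Markers of cell types were also compared between NEC and control, where 20.1% of all genes rose and 22.9% fell in CKO. In flox, 27.1% of all genes rose and 26.4% fell. Paneth markers summed to 125 to 243 rescaled FPKM in CKO NEC and 305 to 333 in flox NEC, against 9.79 to 55.9 in CKO control and 11.2 to 67.9 in flox control, with 3 of 5 genes higher in CKO and 5 of 5 in flox. Fibroblast markers summed to 241 to 405 in CKO NEC and 370 to 503 in flox NEC, against 48.3 to 140 in CKO control and 129 to 247 in flox control, with 5 and 4 of 5 genes higher. The 4 endothelial markers were higher in both genotypes, and enterocyte markers were lower for 3 of 7 in each. Macrophage and monocyte markers were lower for 2 of 5 in each genotype and higher for 1 in flox. Smooth muscle markers were higher for 1 of 5 in each and lower for 1 in flox, which is no more than the shares of all genes. B cell markers summed to 0.377 to 2.41 in NEC libraries, against 2.79 to 40.9 in control libraries. The 5 neutrophil markers summed to at most 1.41 rescaled FPKM in every library, with Mpo, Elane and Ly6g at or near 0. Of the 6 crypt stem cell markers, 3 rose in CKO and 2 in flox, the latter near the share of all genes. The mitochondrial share of reads was 4.09 ± 0.538% in CKO NEC and 6.03 ± 0.843% in CKO control, and 4.05 ± 0.407% in flox NEC and 12.8 ± 1.62% in flox control (SD, n = 3 each). The part of these cell types and of the mitochondrial share in the rise of the cell cycle genes was not tested.

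Other genes of the pathway were counted by list, and most of the called ones rose in the replication and the kinetochore and spindle lists. Of 32 tested genes for origin recognition, helicase loading and polymerases, 19 rose and 1 fell in CKO and 13 rose and 1 fell in flox, with median log2 changes of 0.49 and 0.29. Dbf4, the activator of the CDC7 kinase, rose by 1.07 and 1.05, Orc2, of the origin recognition complex, by 0.91 and 0.78, and Mcm10 by 1.02 in CKO. Of 26 tested genes of the kinetochore, spindle and cytokinesis, 24 rose and 1 fell in CKO and 20 rose and 1 fell in flox, with medians of 1.14 and 0.88. Ect2, which is needed for cytokinesis, rose by 1.18 and 1.63, and Incenp, a scaffold of the passenger complex, rose by 1.71 in CKO. Here and below, a value given for a single genotype is no difference between the genotypes. No gene of the pathway lists was called in the interaction, which is tested further on. Pttg1 (securin, which the anaphase-promoting complex destroys) fell by 0.76 in CKO and by 0.97 in flox.

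Of 14 tested genes for other cyclins, CDKs, CDC25 phosphatases and checkpoint kinases, 9 rose and 3 fell in CKO and 5 rose and 3 fell in flox. Ccnd3 (cyclin D3) fell by 0.94 in CKO and by 1.04 in flox, while Cdk6, which like Cdk4 binds D-type cyclins, rose by 0.90 and 1.02. Ccnf (cyclin F) rose by 1.84 and 1.52. Of 15 genes for the Rb family, other E2F factors and DREAM subunits, 6 rose and 2 fell in CKO and 9 rose and 1 fell in flox. The E2F partner Tfdp2 rose by 0.60 and 0.96, and Lin37, a MuvB subunit, fell by 1.33 in flox.

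CDK inhibitors were called in both directions, in shares near those of all genes given above. Of 6 tested, 1 rose and 2 fell in CKO and 2 rose and 2 fell in flox. Cdkn1c (p57) averaged 43.3 ± 24.8 rescaled FPKM in CKO NEC and 190 ± 47.3 in CKO control, and 39.3 ± 4.86 in flox NEC and 206 ± 34.6 in flox control (SD, n = 3 each). Its log2 changes were -2.29 ± 0.40 and -2.36 ± 0.40 (adjusted p = 0.00114 and 0.000536). Cdkn2d (p19 of the INK4 family) fell by 1.00 in CKO and by 1.37 in flox, Cdkn2c rose in CKO (0.92), and Cdkn2b (1.09) and Cdkn1b (0.29) rose in flox. Cdkn1a (p21), a p53 target that halts the cycle, had log2 changes of 0.12 ± 0.39 and 0.78 ± 0.39 and did not pass (adjusted p = 0.821 and 0.110). Of 10 p53 target and quiescence genes, 2 rose and 3 fell in CKO and 3 rose and 2 fell in flox, again near the shares of all genes, with Sesn2, a stress-induced inhibitor of mTORC1, at -1.72 and -1.74.

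Between CKO and flox in NEC tissue, none of the 50 genes passed the test in limma, and neither did any of the 13673 genes tested (0.0% higher and 0.0% lower). At an unadjusted p under 0.05 there were 599 of all genes and 1 of the 50, Birc5, and limma-voom, run on reads per gene, called 0 as well. On the deposited FPKM, 42 of the 50 genes were above flox and 8 below, with a median log2 difference of 0.15, against 0.01 over all genes. Without CKO NEC library 1 the median was 0.06, without flox NEC library 3 it was 0.09, and without CKO NEC library 3 it was 0.22. In the fit on all 6 libraries the difference stayed between -0.14 and 0.31 for every one of the 50. The CKO and flox libraries did not overlap for 4 of the 50 genes, all higher in CKO, against 4.83% of all genes higher and 6.14% lower. Birc5 had 9.90, 8.07 and 7.84 deposited FPKM in CKO NEC libraries, against 6.34, 7.57 and 6.63 in flox NEC libraries, a log2 difference of 0.29 ± 0.12 (adjusted p = 0.840). Cdt1 had 13.0, 13.8 and 13.6 FPKM in CKO, against 8.48, 12.9 and 11 in flox. All 3 CKO libraries stood above the highest flox library, by a narrow margin. The other 2 were Bub1b (0.17) and Cenpa (0.20). Summed Paneth markers, given above, were lower in every CKO NEC library than in any flox NEC library. The markers of Paneth cells (5 of 5, median log2 difference of -0.80), smooth muscle (5 of 5, -0.87), fibroblasts (5 of 5, -0.50), endothelium (4 of 4, -0.21) and macrophages and monocytes (5 of 5, -0.22) were all below flox, and 0 of them passed the test. Crypt stem cell markers were above flox for 5 of 6 (0.20), and enterocyte markers for 4 of 7 (0.05). The part of these cell types here was not tested.

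Between CKO and flox in control tissue, 47 of the 50 genes were tested (Cdc6, Gins2 and Cenpf fell under the filter) and none passed, while 1 of all 13300 genes did (0.0% higher, 0.00752% lower) in limma. At an unadjusted p under 0.05 there were 3849 of all genes and 0 of the 47 in this fit. Limma-voom called 0 of the 47, with 591 genes higher and 144 lower over the whole table. With a replicate block, unadjusted p in limma was under 0.05 for Plk1 (-0.56), Ube2c (-0.57), Mki67 (-0.44), Ccnd1 (0.53) and Mcm6 (0.30). None of them passed after adjustment (lowest adjusted p = 0.0576, Plk1), while 700 of all genes were called higher and 203 lower. The block pairs libraries by number, a pairing the labels do not state. Among the 47, 14 were above flox and 33 below, with a median log2 difference of -0.13, against 0.04 over all genes. The sign of that median rested on single libraries: it was 0.16 without CKO control library 3, 0.08 without flox control library 2 and -0.39 without flox control library 3, and 0.12 over the 11 members that a filter on mean FPKM of at least 5 leaves. With library 3 left out of both control groups, an alternative chosen after seeing the data, the median kept its sign. It was then -0.12, against 0.06 over all genes. The lowest unadjusted p was that of Plk1, with 5.44, 4.41 and 2.5 deposited FPKM in CKO control libraries, against 7.21, 7.75 and 4.44 in flox control libraries. These overlapped, and the log2 difference was -0.56 ± 0.27 (adjusted p = 0.220). Groups did not overlap for 1 gene, Mybl2, with 1.17, 1.26 and 0.677 FPKM in CKO against 1.83, 1.43 and 1.44 in flox, where 21.8% of all genes did not overlap on the higher side and 12.7% on the lower. The mitochondrial share of reads was 6.03 ± 0.843% in CKO control and 12.8 ± 1.62% in flox control (SD, n = 3). Smooth muscle markers were below flox for 5 of 5 genes, with a median log2 difference of -0.89 and sums of 135 to 440.4 rescaled FPKM in CKO control and 504 to 638 in flox control. Fibroblast markers were below flox for 5 of 5 too, with a median of -1.05, and none of these 10 genes passed the test. Enterocyte markers were above flox for 6 of 7 tested genes (median 0.26), B cell markers for 4 of 4 (0.14) and crypt stem cell markers for 3 of 5 (0.11). Endothelial markers and those of macrophages and monocytes were below flox for 3 of 4 each (-0.06 and -0.16). No gene of these lists passed the test either. The part of the mitochondrial share and of these cell types was not tested. Without both control libraries 3, Ube2c passed, with a log2 difference of -0.70 ± 0.13 (adjusted p = 0.0412), from 6.75 and 7.15 FPKM in CKO against 12.8 and 11.2 FPKM in flox. It was the only 1 of 47 members called there, while 8.25% of all 12659 genes tested were higher and 2.37% lower.

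**Figure D4:**
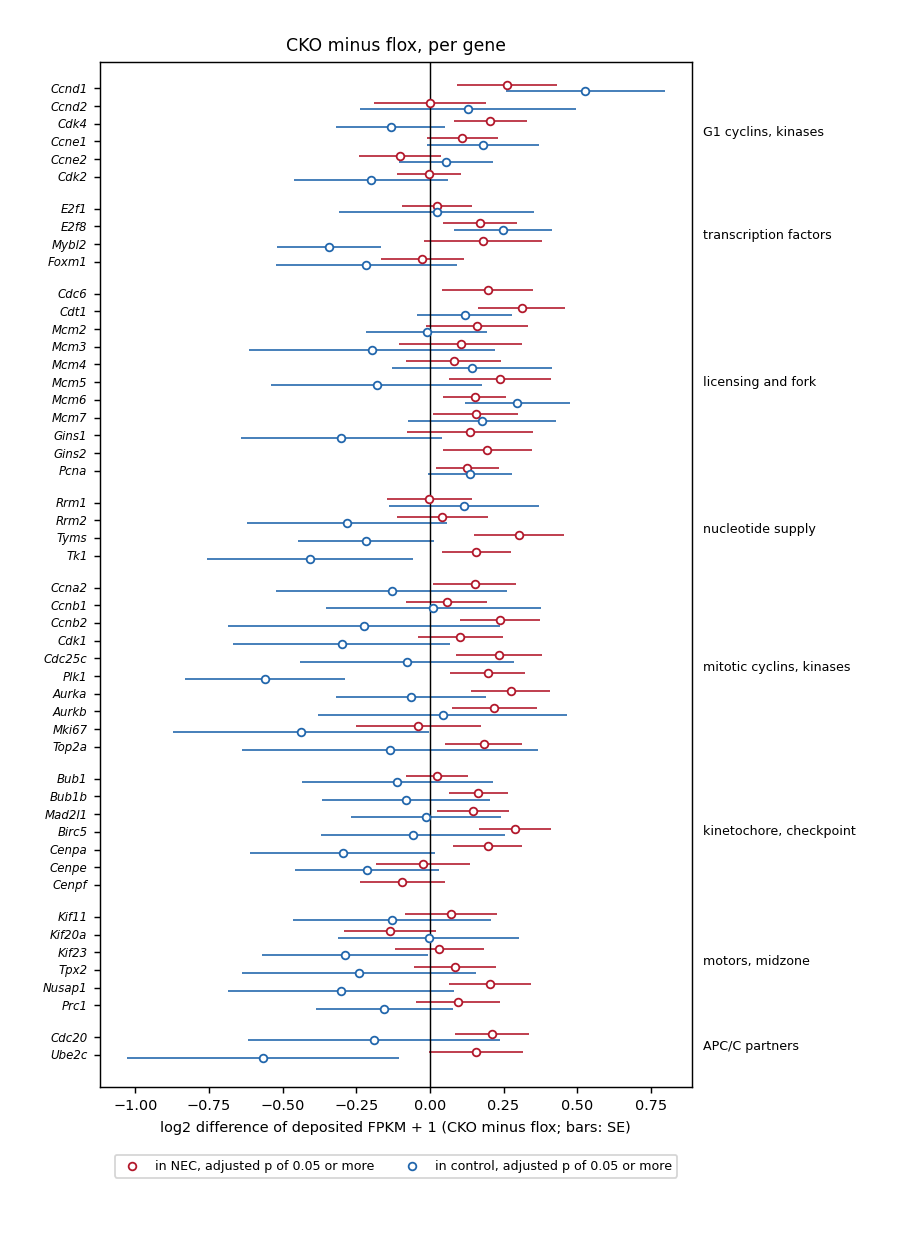
Log2 difference of deposited FPKM plus 1 between CKO and flox for each of the 50 genes in NEC (red, above) and in control (blue, below), with bars for the standard error. Open points mark an adjusted p of 0.05 or more, which holds for all of them, and Cdc6, Gins2 and Cenpf have no control value.

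The change with NEC in CKO less that in flox tests whether the genotypes responded differently. None of the 50 genes passed in limma or limma-voom, while 0.15% of all 14688 genes were higher and 0.626% lower. The estimate was above 0 for 40 of the 50 genes, with a median of 0.27 on the log2 scale against -0.01 over all genes. It was above 0 for all 10 mitotic and all 7 kinetochore genes. The median was 0.03 without CKO control library 3, 0.10 without flox control library 2, 0.17 without flox control library 1, 0.42 without CKO control library 1 and 0.51 without flox control library 3, so its size rested on single control libraries. With library 3 left out of both control groups, an alternative chosen after seeing the data, the median was 0.31, against -0.02 over all genes. Plk1 was the only member with an unadjusted p under 0.05, with an interaction of 0.77 ± 0.32 (adjusted p = 0.203), followed by Mybl2 at 0.53 ± 0.26 (adjusted p = 0.275). For Cdc20 it was 0.41 ± 0.49 and for Ccnb1 0.06 ± 0.42, with standard errors near or above the estimate. A p that misses the threshold does not show that the genotypes responded alike.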

How the data were processed

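The labels state that RNA was isolated with Trizol and that libraries were made with a NEBNext Ultra II kit. The sources used here name no aligner, counter, genome build or annotation. The authors deposited FPKM, per gene and library, in 2 tables (NEC and control) with 6 libraries each, scaled separately per table. Gene coordinates were identical to GENCODE M21 for 98.3% of genes matched by ID and for 48 of the 50 members. FPKM times gene length was a whole multiple of a step (100% of values, tolerance 0.05), which gave reads per gene, and whether these are reads or fragments is not known. Rescaled FPKM are these reads divided by median-of-ratios factors over all 12 libraries and by gene length. On the log2 scale, the deposited values lie 0.11 above the rescaled in NEC and 0.04 below in control. Genotypes were compared on deposited FPKM within a table (6 libraries), and NEC with control and the interaction on rescaled FPKM (12 libraries, 4 group means). Log2 of the value plus 1 was fitted with limma 3.58.1 in R 4.3.3 (trend, two-sided, Benjamini-Hochberg over all genes with a value of at least 1 in at least 3 libraries fitted), and a fold on this scale understates the change of low genes. The procedure was tested on counts simulated with a fixed dispersion, with changes planted only in genes with a mean of at least 5 FPKM. No library that departs from its group was simulated, so spread like that of the control libraries was not covered. Alternatives covered the pseudocount, filters, scaling, limma-voom on the reads, a replicate block and leaving out libraries. Other work used Python 3.11.15, numpy 2.4.6, pandas 2.3.3 and matplotlib 3.10.9. Genes named with values in every library were those with the highest mean in each role and the 5 largest rises and falls among calls of each NEC comparison, plus the target gene. In the genotype comparisons, library values were also printed for Birc5 and Plk1, which had an unadjusted p under 0.05 in limma (in NEC and in the interaction). They were printed too for Cdt1 and Mybl2, whose groups did not overlap, and for Ube2c, called without both control libraries 3. Of each pathway list, up to 4 genes with the smallest p were named. Members, roles, pathway and marker lists were chosen with earlier results of these data known.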

Additional observations from a re-analysis of the deposited data

How the results depend on the processing

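Of 1212 repeated tests of the members called, 45 missed the threshold and 0 changed sign. In CKO, the median change with NEC was 1.90 with a pseudocount of 0.1 and 1.97 with limma-voom, and in flox 1.54 with limma-voom. With a filter on mean FPKM of at least 5, which left 28 members, 25 rose in each genotype. The fall of Cdk4 in CKO was not called (0 genes lower) with no filter, total-read scaling, quantile normalization or deposited FPKM. Genes called lower numbered 2 with the replicate block in CKO and 3 without both control libraries 3 (chosen after seeing the data) in both genotypes. Leaving out 1 library at a time gave 0 to 2 genes lower in CKO and 1 to 3 in flox, with the highest numbers without control library 3 of that genotype. With the replicate block, 43 genes rose in each genotype, and the genotype and interaction comparisons had 0 calls. Leaving out both control libraries 3 gave 1 gene lower in CKO than in flox in control tissue, with 1045 higher and 300 lower over all genes. Over all genes in that comparison, 0 were higher and 1 lower as reported, and 626 were higher and 134 lower with the stricter filter, 591 and 144 with limma-voom, 700 and 203 with the block, 1462 and 623 with all 12 libraries in a single fit, and 677 and 153 without flox control library 3. The labels do not say what a shared replicate number means, and the libraries did not meet the rule for treating numbers as pairs: deviations from the group means correlated at -0.12 to 0.36 over 18 same-numbered pairs, 8 of them over 0.1, against -0.30 to 0.27 over other pairs. The highest value, 0.36, was between the control libraries 3, while CKO control library 1 correlated best with flox control library 2 (0.27). Calls for Cdc6, Gins1 and Pcna in CKO, and for Ccne2, Mcm3, Mcm6, Pcna and Rrm2 in flox, were lost in at least 1 alternative, and the cause was not tested. Depth limits the lowest members, such as Cdc25c in control.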
